A study of Mus musculus with 8 samples.

Results

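The LIM homeobox genes Lhx1, Lhx2, Lhx3, Lhx4, Lhx5, Lhx6, Lhx8, Lhx9 and Isl1 were followed in ChIP-seq peak lists of Ezh2 and G9a from mouse embryonic stem cells. The members were every called peak that overlapped 1 of 9 fixed windows of the mm9 genome build, 1 window per gene, 60 to 120 kb long and 750 kb in all. There were 207 such peaks among 174428 in the 5 lists. The Ezh2 lists gave 52 of 5425 peaks (wild-type library 0), 48 of 11766 (wild-type library 1) and 60 of 6198 (knockout). The G9a lists gave 27 of 67318 (wild type) and 20 of 83721 (rescue). The windows were chr11:84310000-84370000 (Lhx1), chr2:38160000-38250000 (Lhx2), chr2:26030000-26090000 (Lhx3), chr1:157500000-157620000 (Lhx4), chr5:120850000-120920000 (Lhx5), chr2:35910000-35990000 (Lhx6), chr3:153930000-154020000 (Lhx8), chr1:140690000-140780000 (Lhx9) and chr13:117050000-117140000 (Isl1). They tie peaks to genes by position alone, and no mm9 annotation was used to place start sites or exons in them.

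LIM homeobox proteins are transcription factors with a pair of LIM zinc-finger domains, which bind partner proteins, and a DNA-binding homeodomain. They specify neuron types, pituitary, limb, gonad, kidney, heart and pancreas cells in the embryo, and related members often share tasks. In embryonic stem cells most of them are known as silent developmental genes held by Polycomb repressive complex 2, whose catalytic subunit Ezh2 methylates histone H3 at lysine 27. G9a and its partner GLP methylate histone H3 at lysine 9.

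All 5 lists came from the TT2 line, which the labels derive from a C57BL/6 by CBA cross, grown with serum and the cytokine LIF. Ezh2 was profiled in wild-type TT2 cells (libraries numbered 0 and 1) and in 1 library of G9a-/-andGLP-/- cells, which lack both enzymes. That library's title and description name the knockout but its source name says only TT2, and peak lists hold nothing that could check it. For G9a there was 1 list from wild-type TT2 cells and 1 from G9a-/-andGLP-/- cells given back wild-type G9a, which by their label still lack GLP. By their titles, the knockout Ezh2 library is numbered 0, like wild-type library 0, and both G9a libraries are numbered 1, like library 1. The titles do not give what the numbers stand for, so likeness between libraries of the same number can be technical. The labels do not give the number of knockout clones, nor whether the wild-type Ezh2 libraries were made from different cultures, so differences between these libraries can be technical. The 3 input samples were not analysed here. Peak lists carry no read counts, and how deeply each library was sequenced is not known. The lowest scores were 43.02, 30 and 43.03 in Ezh2 library 0, library 1 and the knockout and 20 in both G9a lists. Library 0 was set beside the knockout first because their lowest scores are nearly the same. Scores are the authors' own values, and peaks are ranked by them within a list only. With 1 library in every group but wild-type Ezh2, no test between conditions was possible, and the differences below are descriptions of these libraries.

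Polycomb targets in mammals are typically rich in CpG dinucleotides, so the sequence before the members' start sites was read first. RefSeq promoters (build GRCm38.p6, not the build of the peaks) were matched by symbol for 8 of the 9 members, with 12 starts, and Lhx5 had no match. The 4 below are shown because they hold the members at the ends of the Ezh2 results and of the CpG range. Lhx1 had the highest knockout Ezh2 score of the members, Lhx9 had no knockout peak called at the centre of its domain, Isl1 had no knockout peak, and Lhx8 had few CpGs. Each is the 250 bases before the start, 5′ to 3′, and capitals mark CpG dinucleotides, at chr11:84525535-84525784, chr1:138842445-138842694, chr13:116309689-116309938 and chr3:154330561-154330810, each on the minus strand.
Lhx1: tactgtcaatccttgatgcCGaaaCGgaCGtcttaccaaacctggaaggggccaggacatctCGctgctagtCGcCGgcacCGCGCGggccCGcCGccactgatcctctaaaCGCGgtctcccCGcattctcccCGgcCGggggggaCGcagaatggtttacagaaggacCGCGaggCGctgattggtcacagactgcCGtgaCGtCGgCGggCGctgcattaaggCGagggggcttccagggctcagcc
Lhx9: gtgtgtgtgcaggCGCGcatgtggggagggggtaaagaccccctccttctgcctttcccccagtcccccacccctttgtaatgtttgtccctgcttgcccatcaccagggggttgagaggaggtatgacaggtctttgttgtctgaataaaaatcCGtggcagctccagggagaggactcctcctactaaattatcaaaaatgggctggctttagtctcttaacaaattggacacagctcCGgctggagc
Isl1: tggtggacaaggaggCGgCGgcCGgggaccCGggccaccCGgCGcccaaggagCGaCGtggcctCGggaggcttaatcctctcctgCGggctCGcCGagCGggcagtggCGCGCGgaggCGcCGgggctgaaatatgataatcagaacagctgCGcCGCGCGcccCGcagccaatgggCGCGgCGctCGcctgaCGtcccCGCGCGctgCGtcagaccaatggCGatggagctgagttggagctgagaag
Lhx8: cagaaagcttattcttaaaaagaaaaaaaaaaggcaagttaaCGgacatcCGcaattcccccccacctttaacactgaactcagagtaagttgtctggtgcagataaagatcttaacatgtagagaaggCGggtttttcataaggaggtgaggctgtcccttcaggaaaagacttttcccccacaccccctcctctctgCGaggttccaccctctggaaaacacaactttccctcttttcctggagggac

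These sequences differed widely in CpG content. The Isl1 promoter had 33 CpGs and the Lhx1 promoter 26, with observed to expected ratios of 1.05 and 0.99. The Lhx8 and Lhx9 promoters had 4 CpGs each, with ratios of 0.31 and 0.22. Of the 12 member starts, 7 were CpG-rich, defined as a ratio of at least 0.6 with at least 50% G and C, against 31.0% of 32851 RefSeq promoters. The median ratio was 0.67 for the member starts and 0.37 for RefSeq promoters. Both starts of Lhx2 were CpG-rich (0.89 and 0.88), as were 1 of 2 starts of Lhx3 (0.71) and 2 of 3 starts of Lhx6 (0.85 and 0.64). The Lhx4 start had a ratio of 0.56. Lhx8 and Lhx9, whose starts in this table are CpG-poor, both carried Ezh2 peaks several kb long.

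**Figure D1:**
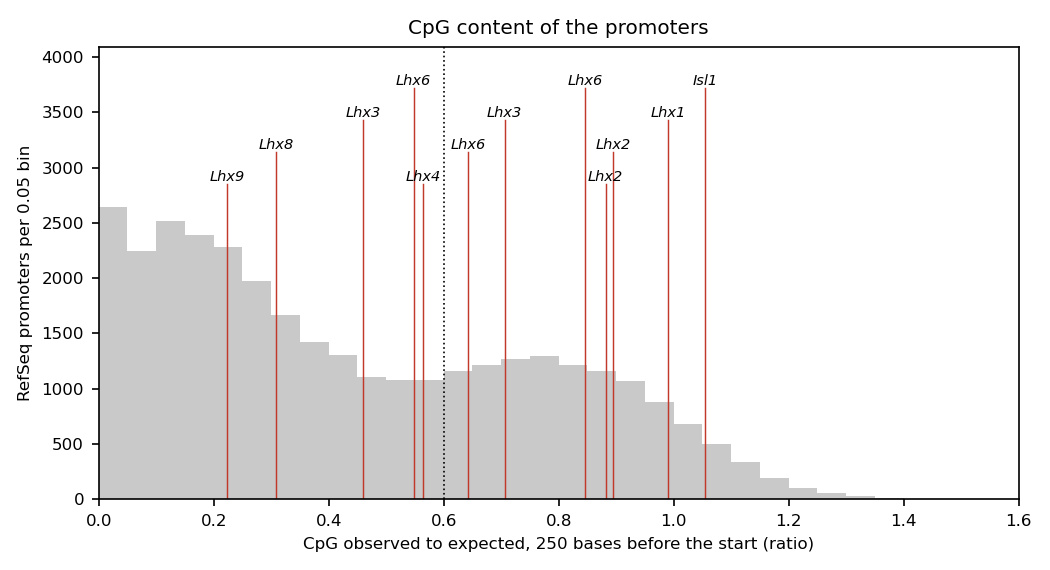
CpG observed to expected ratio of the 250 bases before RefSeq starts, as a histogram of 32851 promoters (grey, number per bin of 0.05) with the 12 starts of the 8 matched members as red lines. The dotted line marks the ratio of 0.6; Isl1 and Lhx1 lie at the CpG-rich end, Lhx9 and Lhx8 at the CpG-poor end.

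Each of the 9 loci had Ezh2 peaks called in both wild-type libraries, and 8 of them had Ezh2 peaks called in the library from cells without G9a and GLP. Isl1, where no knockout peak was called, was the exception. Library 1 peaks covered 138.688 kb of the windows, library 0 peaks 71.886 kb and knockout peaks 55.886 kb. Every library 0 peak in the windows (52 of 52) overlapped a library 1 peak, against 91.3% of library 0 peaks over the genome, and library 1 covered each base that library 0 covered there. Of the library 0 peaks, 33 (63.5%) overlapped a knockout peak, against 51.1% over the genome. Among library 0 peaks with a score of at least 100, 6 of 32 (18.8%) had no knockout overlap, against 21.5% over the genome; they lay at Lhx2, Lhx5, Lhx8 and Lhx9. Of the library 1 peaks, 20 of 48 (41.7%) overlapped library 0, against 22.5% over the genome, and 18 (37.5%) the knockout, against 19.0%.

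Knockout peaks at these loci mostly lay where the wild type had them. The windows hold Ezh2 loci, so differences between their Ezh2 shares and the genome's cannot be told apart from the choice of windows. Knockout peaks in the windows had a median score of 125.9, against 58.72 over their list. Of the 60 knockout peaks, 57 overlapped a library 1 peak (95%, against 71.0% over the genome) and 49 a library 0 peak (81.7%, against 52.5%). The other 3 had no wild-type peak (5%, against 28.7% over the genome), 1 each at Lhx1, Lhx2 and Lhx5, with scores of 60.19, 44.15 and 44.89. Over the windows, the ratio of covered length was 0.518 for library 0 to library 1, 0.777 for the knockout to library 0 and 0.403 for the knockout to library 1. By this ratio the knockout was nearer to library 0 than library 1 was in the sum, though not at Lhx5, Lhx9 and Isl1. There the ratio to library 0 (0.731, 0.248 and 0) was below that of library 0 to library 1 (0.798, 0.616 and 0.135). At Isl1 the order depends on the measure, since library 0 covered 1976 bp, library 1 14607 bp and the knockout none. Library 0 and the knockout also share the number 0, and the part of that was not tested.

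**Figure D2:**
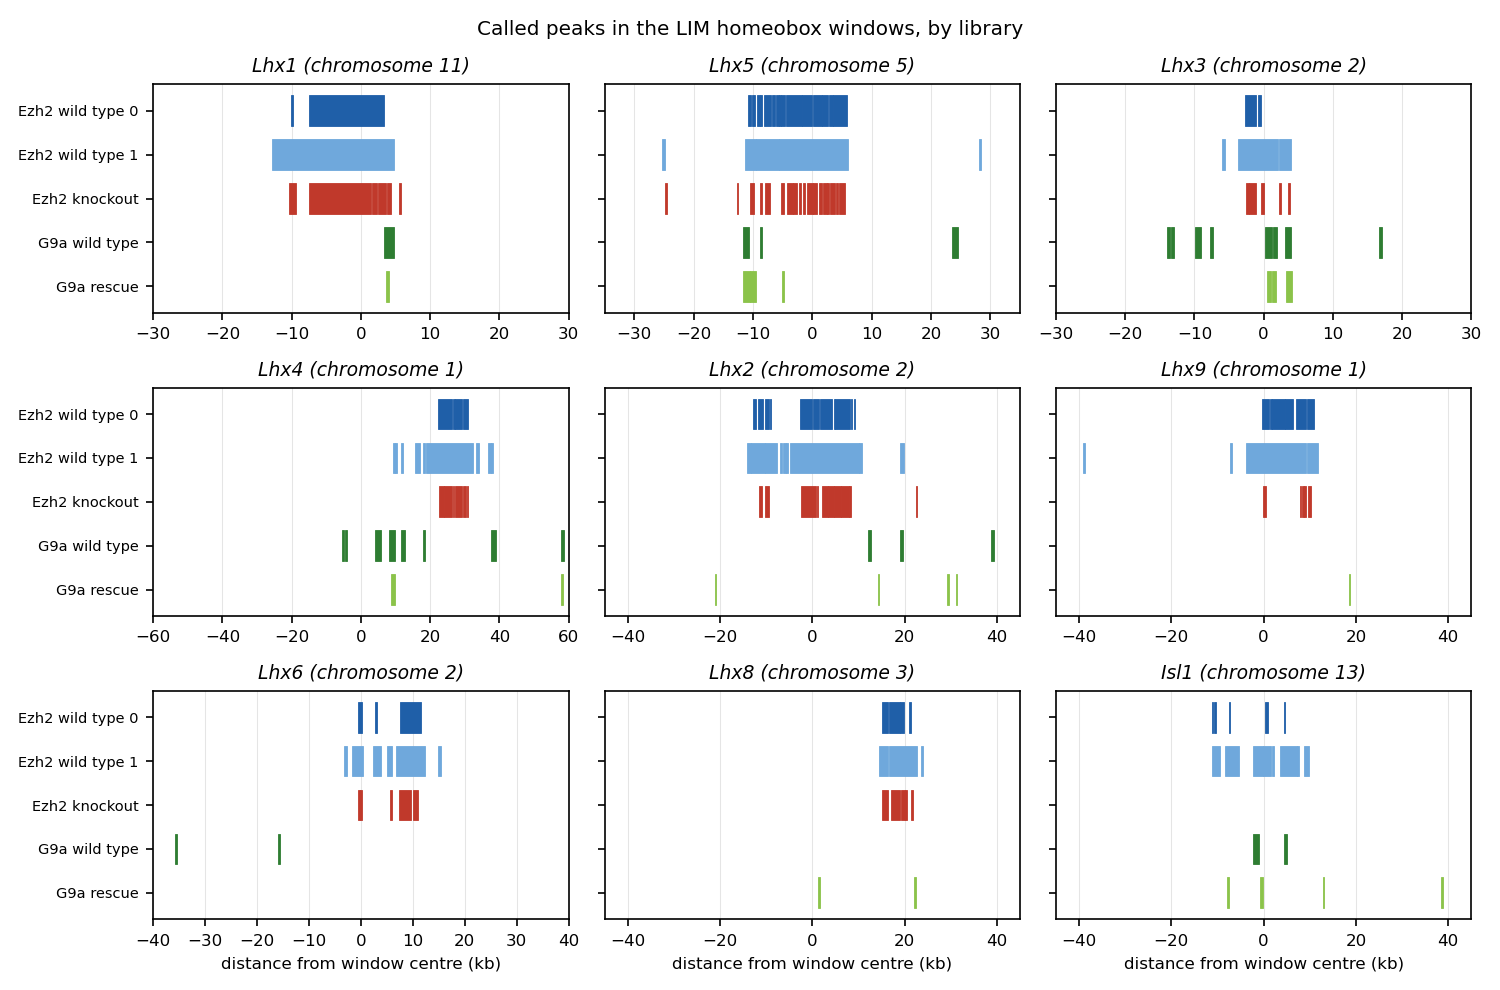
Positions of called peaks in each window, by distance from the window's centre in kb; the 5 rows of a panel are the 5 libraries and each bar is 1 peak drawn to scale. Isl1 has no knockout Ezh2 peak, and at Lhx9 knockout peaks stand at the edges of a gap where both wild-type libraries have peaks.

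Overlapping Ezh2 peaks of the 3 lists were merged into regions, of which 20 in the windows held peaks of both wild-type libraries. Knockout peaks lay in 15 of these 20 (75%; exact binomial 95% interval 50.9 to 91.3), against 62.6% of 2642 such regions over the genome. The interval covers counting alone, and neighbouring regions of 1 locus are not independent. The 5 regions with no knockout peak were 4 at Isl1 and 1 at Lhx6. Without the Isl1 window, 15 of 16 (93.8%) held a knockout peak. Of all 51 Ezh2 regions in the windows, 25 (49.0%) were called in library 1 alone, against 61.0% of 13994 over the genome. Their median width was 534 bp (555 bp over the genome), and that of regions in all 3 lists was 5524 bp (2992 bp over the genome).

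Lhx1 and Lhx5 are close relatives; Lhx1 is needed for head formation and the urogenital tract, and Lhx5 for hippocampus and forebrain development. Ezh2 at Lhx1 formed 1 peak of 17619 bp in library 1, with 11133 bp covered in library 0 and 12899 bp in knockout cells. The highest Lhx1 peak scored 3100 in both wild-type libraries, a value that 5 peaks of library 0 and 322 of library 1 share, and 2986.07 in the knockout, where it ranked 2 of 6198. The knockout covered 98.2% of the length that library 0 covered at Lhx1. Lhx5 was covered over 14572, 18269 and 10659 bp in library 0, library 1 and the knockout. Its knockout signal was broken into 18 peaks, against 15 in library 0 and 5 in library 1. The highest knockout peak at Lhx5 scored 413.72 and spanned 811 bp (rank 289 of 6198), while the highest library 0 peak scored 1260.25 and spanned 2692 bp (rank 125 of 5425). So both relatives had peaks in all 3 libraries, and knockout calls were split at both. Lhx1 had 6 knockout peaks, against 2 in library 0 and 1 in library 1. The longest knockout peak spanned 8963 bp at Lhx1 and 1025 bp at Lhx5.

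Lhx3 and Lhx4 act together in pituitary and motor neuron development. At Lhx3, library 0 covered 1997 bp, library 1 7966 bp and the knockout 2480 bp. It was 1 of 2 loci, with Lhx1, where the knockout covered more than library 0, with ratios of 1.24 and 1.16. Part of that Lhx3 length lay elsewhere: 58.3% of the knockout length fell inside library 0 peaks, and all 2480 bp inside library 1 peaks. Lhx4 was covered over 8047, 19686 and 6946 bp in library 0, library 1 and the knockout. Its highest peak ranked 25 in both library 0 (score 2192.84) and the knockout (1334.79). Library 1 also had 8 regions of its own at Lhx4, from 518 to 1578 bp wide, spread on both sides of the main peak from 157578739 to 157592261 on chromosome 1.

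Lhx2 is needed for eye, forebrain and hair follicle development and its relative Lhx9 for gonad and limb development. Lhx2 held the longest wild-type Ezh2 coverage of the 9 loci in library 1 (24413 bp). Library 0 covered 13644 bp there, and the knockout 11395 bp. All 3 of its regions from both wild-type libraries held knockout peaks. The highest Lhx2 peaks scored 1913.82 in library 0, 3100 in library 1 and 856.07 in the knockout. The library 0 peak (38209879-38213281) and the knockout peak (38202619-38205925) lay at different places within that library 1 peak.

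Lhx9 departed from the other Lhx loci. Ezh2 covered 9979 bp in library 0 and 16207 bp in library 1 at Lhx9. The knockout covered 2478 bp, a ratio to library 0 of 0.248. The other 7 Lhx loci had ratios from 0.731 (Lhx5) to 1.24 (Lhx3). Set against library 1, Lhx9 was again the lowest of the 8 Lhx loci, with 0.153 against 0.311 (Lhx3) to 0.732 (Lhx1) at the other 7. Knockout peaks stood at 140734952-140735450 and again from 140742805 on chromosome 1, leaving 7354 bp between them without a knockout peak. Library 1 covered that whole gap and library 0 covered 6410 bp of it. The gap held 3 whole library 0 peaks, among them the highest at Lhx9, from 140736855 to 140739680 with a score of 1217.15. Over the genome, 134 library 0 peaks scored at least 1217.15, and this Lhx9 peak was the 1 of them (0.746%) with no knockout overlap. That cut was the peak's own score, so this peak was the lowest of the 134. Of 942 library 0 peaks scoring at least 321.95, the score of another peak in the gap, 41 had no knockout overlap. The highest knockout peak at Lhx9 scored 169.34 and ranked 924 of 6198. As merged regions, both Lhx9 regions counted as kept, since each still held a knockout peak.

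Lhx6 and Lhx8 act in the ventral forebrain, where Lhx6 specifies cortical interneurons and Lhx8 cholinergic neurons. Lhx6 was covered over 5256, 11245 and 4321 bp in library 0, library 1 and the knockout, and Lhx8 over 5282, 8676 and 4708 bp. The highest Lhx6 peak scored 1527 in library 0 and 570.97 in the knockout, and that of Lhx8 scored 995.14 and 864.95. Their ratios of knockout to library 0 length were 0.822 and 0.891. At Lhx6, a weak region from 35952315 to 35953891 on chromosome 2 had no knockout peak; it scored 54.12 in library 0 and 302.1 in library 1. At Lhx8, both regions held knockout peaks.

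Isl1 is needed for motor neurons, the second heart field and pancreatic islets, and it was the locus with the lowest wild-type Ezh2 scores. Library 1 had 8 peaks over 14607 bp at Isl1, library 0 had 5 peaks over 1976 bp, and the knockout had none. Its highest scores were 99.23 in library 0 (rank 2455 of 5425) and 657.23 in library 1 (rank 1342 of 11766), the lowest of the 9 loci in both wild-type lists. The library 0 to library 1 ratio of covered length was 0.135 at Isl1, against 0.251 to 0.798 at the Lhx loci. The 4 regions of both wild-type libraries scored from 44.5 to 99.23 in library 0, close to that list's lowest score of 43.02. Of 1018 regions elsewhere with library 0 scores in that range, 36.9% held a knockout peak. Of the 115 that also matched the Isl1 range in library 1 (476.27 to 657.23), 49.6% did. The low library 0 scores go with the missing knockout calls at Isl1, and their part in them was not tested.

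**Figure D3:**
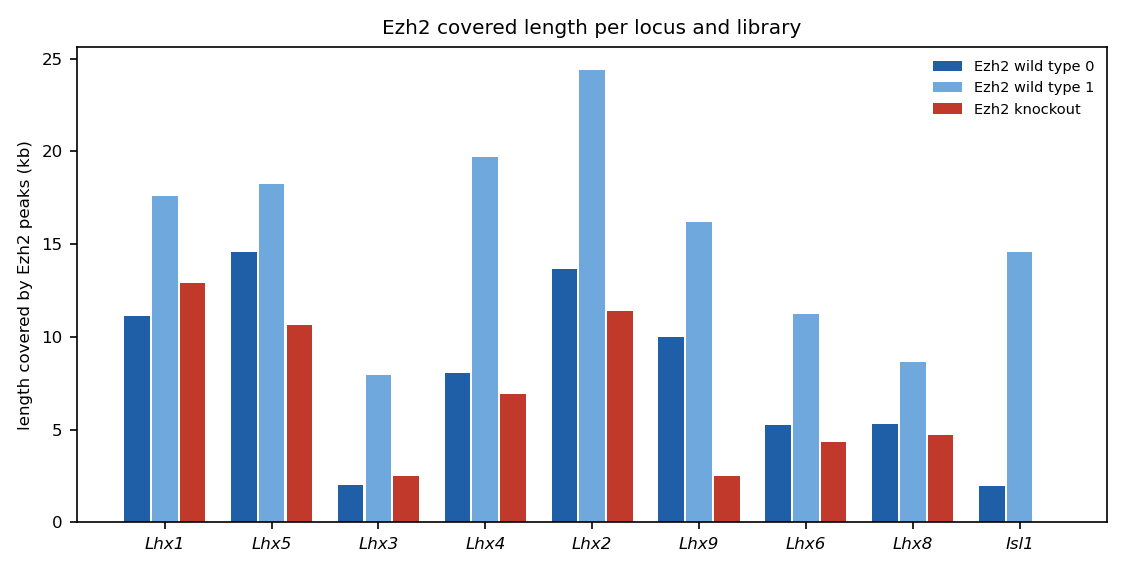
Length covered by Ezh2 peaks (kb) in each window, for wild-type library 0, wild-type library 1 and the knockout, 1 library per bar. Knockout bars reach 12899 bp at Lhx1, fall to 2478 bp at Lhx9 and are missing at Isl1.

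To set whole loci beside the rest of the genome, Ezh2 peaks of the 3 lists were joined over gaps of up to 10 kb into domains, a comparison chosen after the values were seen. The main domain of each locus spanned from 9463 bp (Lhx8) to 36791 bp (Lhx2). Over 480 domains with at least the library 0 length of Isl1 (1976 bp), the median ratio of knockout to library 0 was 0.735, with quartiles of 0.547 and 0.910. The median over the 9 loci was 0.835. Of the 480 domains, 10 (2.08%, Isl1 among them) had no knockout peak. This cut makes Isl1 the shortest of the 480, so the share does not describe domains as short or as weak as Isl1. Just below the cut, domains of 1973, 1961 and 1952 bp in library 0 had no knockout peak, and domains of 1975, 1967 and 1958 bp held knockout peaks. Of 49 domains with at least the library 0 length of Lhx9, none but Lhx9 itself (2.04%) had a ratio as low as 0.248. This cut makes Lhx9 the shortest of the 49. Some shorter domains had lower ratios, such as a domain with 7758 bp in library 0 and no knockout peak, and others had higher ones. Lhx1 was at the other end, with the highest ratio of the 36 domains at least as long as its own. Of the 480 domains, the 33 on chromosome 1 had a median ratio of 0.536; Lhx4 and Lhx9, both on that chromosome, had 0.863 and 0.248. The 25 on chromosome 13, with Isl1, had a median of 0.677, and 3 of them had no knockout peak.

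**Figure D4:**
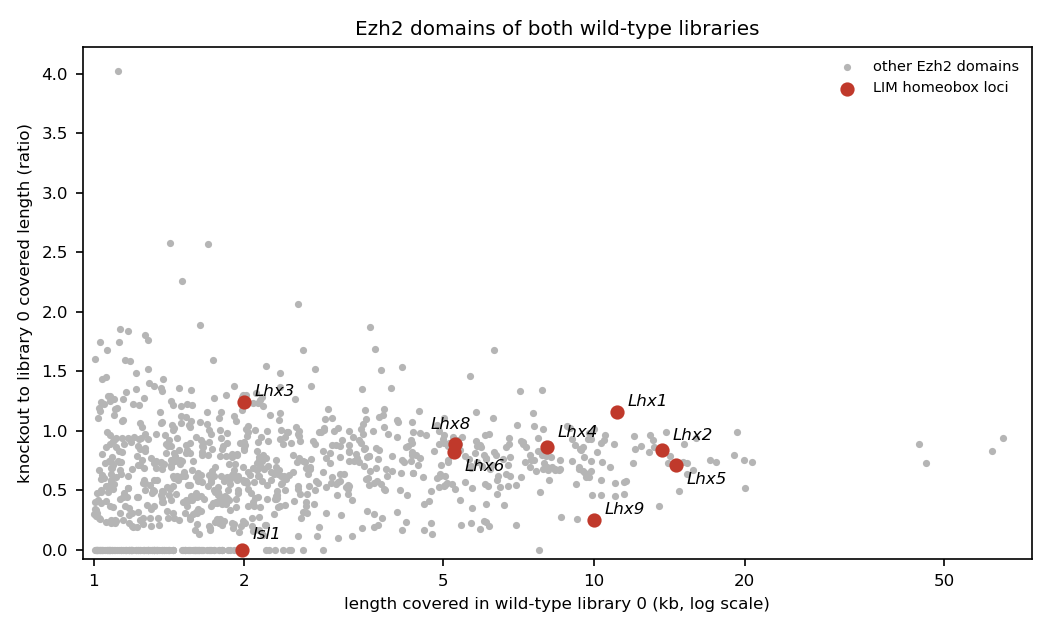
Ratio of knockout to library 0 covered length against library 0 covered length (kb, log scale) for Ezh2 domains of both wild-type libraries with at least 1 kb in library 0. Red points are the main domains of the 9 LIM homeobox loci and grey points the other domains. Lhx9 lies at 0.248, below the other domains that are at least as long in library 0, though not below all shorter ones. Isl1 lies at 0.

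Summed over the 9 windows, each G9a list had fewer peaks than each Ezh2 list and covered less length. Single loci went the other way: the 8 wild-type G9a peaks at Lhx3 covered 5317 bp and the 8 at Lhx4 covered 8669 bp, more than library 0 or knockout Ezh2 did at either locus. The wild-type list had 27 peaks over 21.912 kb of the windows and the rescue list 20 over 11.245 kb. Their median scores were 27.9 (wild type) and 28.99 (rescue), beside 31.71 and 26.86 over the whole lists. The wild-type density was 36.0 peaks per Mb in the windows and 25.4 over the genome; the rescue had 26.7 and 31.5. Lhx3 and Lhx4 carried 16 of the 27 wild-type peaks, 8 each, and Lhx8 and Lhx9 had none. In the rescue, Lhx6 had none and Lhx2 and Isl1 had most, with 4 each.

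G9a and Ezh2 peaks met at 6 of the 9 loci in the wild type. Of the 27 wild-type G9a peaks, 13 (48.1%) overlapped a library 1 Ezh2 peak, against 2.54% of wild-type G9a peaks over the genome. Overlap with a library 0 peak was seen for 3 (11.1%, against 0.463%) and with a knockout peak for 3 (11.1%, against 0.461%). Of the 20 rescue G9a peaks, 11 (55.0%, against 2.45%) overlapped library 1, 4 (20.0%, against 0.420%) library 0 and 5 (25%, against 0.377%) the knockout. None of the 13 wild-type and 11 rescue peaks on library 1 Ezh2 overlapped the highest library 0 or knockout peak of its locus. The highest library 1 peak of the locus, longer than that of library 0 at each locus, was overlapped by 3 of the 13 (at Lhx1 and Lhx3) and 6 of the 11 (at Lhx1, Lhx3, Lhx5, Lhx8 and Isl1). The windows hold Ezh2 loci, and library 1 covers 18.5% of their length, so shares above the genome's cannot be told apart from the choice of windows. More G9a peaks met library 1 than library 0, but library 1 covers more length and shares its number with the G9a libraries. The parts of these were not tested. Among the 20 Ezh2 regions that both wild-type libraries held, 5 (25%) had a wild-type G9a peak, against 16.0% over the genome, and 6 (30.0%) a rescue G9a peak, against 20.0%. Those with a wild-type G9a peak were 2 at Lhx5 and 1 each at Lhx1, Lhx3 and Isl1. With scores of at least 100 in every list, 1 remained, at Lhx3, and the genome's share at that cut was not computed.

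At Lhx3, Lhx4, Lhx5 and Lhx1, wild-type and rescue G9a peaks overlapped. Lhx2 and Isl1 also had G9a peaks in both lists, but these did not overlap. Of the 27 wild-type peaks, 7 (25.9%) overlapped a rescue peak, against 31.9% over the genome, and 7 of the 20 rescue peaks (35.0%) overlapped a wild-type peak, against 27.2%. At Lhx5, G9a lay across the start of a library 1 Ezh2 peak (120873617) at 120873390-120874270 on chromosome 5 in the wild type (score 65.21) and at 120873415-120874485 in the rescue. The rescue peak there scored 297.55 and ranked 308 of 83721, the highest rank of G9a at the 9 loci. At Lhx3, G9a peaks stood at 26060135-26061260 (wild-type score 124.9) and 26063041-26063966 (84.42) on chromosome 2, with rescue scores of 155.02 and 239.22. The first of these lay inside the library 1 Ezh2 peak but outside every library 0 and knockout peak. A weaker shared peak stood between them at 26061363-26061919 (wild-type score 23.67, rescue score 29.28). At Lhx4, the shared peak at 157568067-157569778 (wild-type score 107.6, rescue score 143.75) touched a weak library 1 region, and the main Ezh2 peak held no G9a. A second shared peak at Lhx4, 157617952-157618562 (wild-type score 44.77, rescue score 20.38), lay 19729 bp from the nearest library 1 Ezh2 peak. At Lhx1, a weak peak at 84343395-84344719 (wild-type score 40.55, rescue score 20.54) lay at the end of the library 1 Ezh2 peak, past the library 0 peak. The region at Lhx9 where knockout Ezh2 was not called held no G9a peak in either list.

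Chromosome 1 as a whole has few rescue G9a peaks, with a ratio to the wild type of 0.275. Its members Lhx4 and Lhx9 together counted 8 wild-type peaks against 3 from the rescue, a ratio of 0.375. The other 6 Lhx windows had 17 and 13, a ratio of 0.765, against 1.24 for the genome with chromosome 1 included. Lhx3 alone had 8 and 3 of these. Lhx6 had 2 and 0, Lhx2 had 3 and 4, Lhx8 had 0 and 2, and Lhx1 and Lhx5 had equal numbers. These numbers are small and come from 1 library each. With scores of at least 100, the 8 Lhx windows had 2 wild-type and 4 rescue peaks, so the direction of the ratio turned from 0.640 to 2.00.

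Isl1 lies in a part of chromosome 13, from 110 to 120 Mb, that has extra G9a peaks in the rescue, and most of the extra peaks lay outside the Isl1 window and its surroundings. That block held 312 wild-type and 2108 rescue peaks, or 31.2 and 210.8 per Mb. At that density the 90 kb window would hold 18.97 rescue peaks, and it held 4, beside 2 in the wild type, with covered lengths of 1699 and 1850 bp. In bins of 250 kb, 12 bins held 100 or more rescue peaks (104 to 173 each, 1782 in all, against 192 wild-type peaks). Their centres lay from 4.5 to 1.75 Mb before Isl1. The other 28 bins, that of Isl1 included, held 3 to 26 rescue peaks each, and the Isl1 bin held 8 with 2 in the wild type. Rescue peaks were still the more numerous there: the ratio to the wild type was 2.81 over these 28 bins and 4.83 (29 against 6 peaks) over the Isl1 window with 500 kb on each side, against 2.09 for chromosome 13 and 1.24 for the genome. The G9a peaks at Isl1 itself were weak, with scores up to 34.74 (wild type) and 32.07 (rescue), and none overlapped between the lists.

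**Figure D5:**
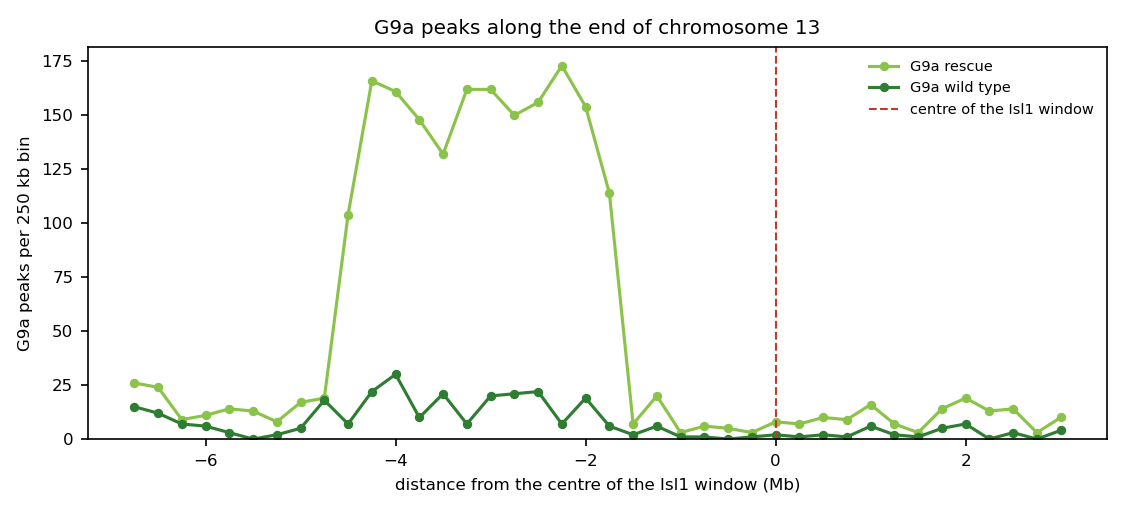
G9a peaks per 250 kb bin along the end of chromosome 13 by distance from the centre of the Isl1 window (Mb), in the rescue (light green) and the wild type (dark green). Rescue bins with 104 to 173 peaks form 1 stretch before Isl1, whose own bin holds 8.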

How the data were processed

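Peak lists of 5 ChIP-seq libraries were used as deposited, each with chromosome, start, end and a score. Bowtie 0.12.7, MACS 1.4 and mm9 are named in the submitters' processing notes; the scores were made by the authors' peak caller, 1 list per library, and no source used here states the threshold for a call. Per the series' design text, pooled wild-type inputs were the control for Ezh2 and G9a; a knockout input also exists, and no source used here says if the knockout list was called against it. G9a samples were fixed with a protein crosslinker before formaldehyde, per the labels' protocols. Depth is unknown, so weak peaks may be missed in shallower libraries.

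Peaks overlapping a window were members, and overlap meant at least 1 bp. Ezh2 regions were merged overlapping peaks of the 3 Ezh2 lists. Intervals are exact binomial (95%) and cover counting error only. The members and lists were chosen with earlier results of these data known. All 9 loci were described, with coordinates for the strongest, uncalled and G9a-bearing regions. Chromosome lengths came from GenomeInfoDb 1.38.1, and promoters from RefSeq (GRCm38.p6). Alternatives are given in the closing section. Python 3.11.15, scipy 1.17.1 and matplotlib 3.10.9 were used, and the overlap procedures were tested on simulated data.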

Additional observations from a re-analysis of the deposited data

How the results depend on the processing

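Across 50 alternative settings of 9 results, 40 stayed near the reported value and 10 moved. Moved meant by over 1.5 times or across 1 for counts and their ratios, and otherwise beyond the binomial interval or the spread between libraries. Part of this tally was fixed in advance, so it does not measure stability. Every member peak lay wholly inside its window, so requiring that could move no result. The spread for the length ratio came from setting library 1 in place of library 0, so that setting was bound to move it. The count of 8 loci with a knockout Ezh2 peak was the same in its 5 alternatives. The share of regions with a knockout peak moved from 75% to 100% (14 of 14) with scores of at least 100. All regions without a knockout peak, 4 at Isl1 and 1 at Lhx6, score below that cut in library 0, so they were no longer counted. The share was 93.8% without the Isl1 window, a setting added after seeing the data. With library 0 or library 1 left out of the wild type, 37.5% to 58.7% of regions held a knockout peak. Regions with a wild-type G9a peak then numbered 12 of 48 without library 0 and 4 of 46 without library 1, against 5 of 20. The genome's shares of such regions were computed at the reported settings only. No genome share stands beside these values, nor beside those of regions with scores of at least 100. Set against library 1 alone, the ratio of knockout to wild-type Ezh2 length was 0.403 in place of 0.777. With scores of at least 100, regions with G9a fell to 1 and the rescue to wild-type ratio of G9a peaks over the Lhx windows rose from 0.640 to 2.00 (0.4 with equal list lengths); at Isl1 no G9a peak was left, so no ratio was had. At Isl1 that ratio, 2.00 in the windows, was 0.918 by covered length, the other direction, and 3.5 with windows widened by 50 kb. Domains joined over 5 or 20 kb, also added after seeing the data, left Lhx9 at 1.92% to 2.04% and domains without a knockout peak at 1.88% to 2.08%. Where no reason is given, the cause was not tested. No paired analysis was possible because the groups compared share fewer than 2 replicate numbers. Unknown depth limits the reading of every missing peak.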

Other observations

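Windows widened by 50 kb at each end added no library 0 or knockout Ezh2 peak at any of the 9 loci, and the covered lengths stayed at 71886 and 55886 bp. Library 1 gained length at Lhx1 (from 17619 to 18436 bp), Lhx4 (from 19686 to 21650 bp) and Lhx6 (from 11245 to 12584 bp). G9a differed more: at Lhx9, where the window held no wild-type G9a peak, the wider window held 8, with 3 in the rescue. The wider Lhx3 window held 15 wild-type and 6 rescue G9a peaks. In RefSeq's gene order the protein-coding neighbours are Nek7 and 2310009B15Rik at Lhx9 and Pelo and Parp8 at Isl1, and peaks near the ends of wider windows may lie in such neighbours.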
